A study of Homo sapiens with 8 samples.

Results

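Plasmin formation and the start of blood clotting at the cell surface are run by a small set of proteases, receptors and inhibitors, and 9 genes of this set were followed by name in RNA sequencing of ES2 cells: PLAU, PLAUR, PLAT, SERPINE2, SERPINB2, F3, THBD, TFPI and TFPI2. All 9 were found among the 23228 gene symbols listed in each library. ES2 is a human ovarian cancer cell line. The 4 groups were KDM1A knockout cells given 5 µM LY500307 for 48 h, knockout cells given vehicle for 48 h, control cells given LY500307 at the same dose and time, and control cells given vehicle, with 2 libraries each. KDM1A encodes a histone demethylase and LY500307 is an agonist of oestrogen receptor beta; the sources used here name no allele, guide or clone of the knockout. Anything else that sets the 2 populations apart can therefore not be separated from the loss of KDM1A.

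Urokinase, the product of PLAU, and tissue-type plasminogen activator, the product of PLAT, are serine proteases that cut plasminogen into plasmin, which dissolves fibrin and helps to degrade matrix. Urokinase acts while held on the cell surface by its receptor, encoded by PLAUR. Serpins are suicide inhibitors that trap such proteases: SERPINB2 encodes plasminogen activator inhibitor type 2, which blocks urokinase and stays largely inside cells, and SERPINE2 encodes protease nexin 1, a secreted inhibitor of thrombin and of the plasminogen activators. Tissue factor, encoded by F3, is the membrane receptor that starts clotting, and many carcinomas display it. TFPI encodes the Kunitz-type inhibitor of the tissue factor complex, TFPI2 encodes a related Kunitz inhibitor of plasmin found in the matrix, and THBD encodes thrombomodulin, which turns thrombin towards activation of protein C.

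Gene counts per library lay between 24348937 and 30131097, and the 9 genes together took 0.347% to 0.444% of them. The KDM1A transcript stood at 72.0 and 71.6 CPM (counts scaled to a common library size with TMM factors) in knockout libraries with LY500307 and 75.6 and 77.8 CPM in those with vehicle, against 238 and 241 CPM in control libraries with LY500307 and 220 and 219 CPM in those with vehicle. Every library labelled knockout was thus below every control library. Of 9 markers of ovarian epithelial cancer, keratin genes KRT7 and KRT18 were abundant (364 and 161 CPM in vehicle-treated knockout cells, 257 and 327 CPM in vehicle-treated control cells), while PAX8 and WT1 reached 5.90 and 5.22 CPM in knockout cells with vehicle, against 1.98 and 1.75 CPM in control cells with vehicle. The mucin gene MUC16 had 0 counts over the vehicle-treated knockout libraries and 1 over the vehicle-treated control libraries. Since thrombomodulin, TFPI and PLAT are also known from endothelium, 10 endothelial markers were looked at. Their summed level was 389 to 408 CPM in LY500307-treated and 417 to 441 CPM in vehicle-treated knockout cells, against 352 to 378 CPM in LY500307-treated and 365 to 375 CPM in vehicle-treated control cells. TIE1, CDH5 and ROBO4 made up nearly all of it, and they moved in opposite directions. With vehicle, 3 of the 7 markers tested were higher and 2 lower in knockout cells (64.0% of all genes tested were called). TIE1 (325 CPM in knockout, 225 CPM in control cells, log2 fold change 0.53), ROBO4 (70.9 and 38.6 CPM, 0.88) and TEK (20 counts over the knockout libraries and 2 over the control libraries) were higher, while CDH5 (30.6 and 102 CPM, -1.74) and ESAM (0.320 and 2.52 CPM, -2.99) were lower. Among the markers, CLDN5 was at 0 in all 8 libraries, and PECAM1 had 4 counts over each pair of vehicle-treated libraries. The summed level of 10 haematopoietic and platelet markers was at most 1.07 CPM in any library. Parts played by other cells were not tested. In bulk RNA, a smaller number of expressing cells and less RNA per cell cannot be told apart.

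Compared per length of transcript (RPKM, CPM per kilobase of the canonical transcript), SERPINB2 ranked highest of the 9 in every group. Its level was 890 RPKM in LY500307-treated and 980 RPKM in vehicle-treated knockout cells, against 720 RPKM in LY500307-treated and 650 RPKM in vehicle-treated control cells. Below it the order differed between the cell populations. In control cells PLAT came next, at 447 RPKM with LY500307 and 428 RPKM with vehicle, ahead of PLAU, PLAUR, TFPI and TFPI2. In knockout cells PLAU came next, at 200 RPKM with LY500307 and 202 RPKM with vehicle, followed by TFPI2 and PLAUR, and PLAT ranked the sixth in both knockout groups. F3 and SERPINE2 were the lowest of the 8 genes with more than a few counts. F3 was above SERPINE2 in knockout cells, while in vehicle-treated control cells their library ranges overlapped (8.84 to 9.01 RPKM for F3 and 8.98 to 9.31 RPKM for SERPINE2). Other neighbours in rank with overlapping libraries were TFPI and PLAT in LY500307-treated knockout cells and PLAUR and TFPI in vehicle-treated knockout cells. The transcript lengths come from a newer annotation than the one used for counting, so the order rests on that choice.

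The 250 bases before the annotated start are shown for the 4 genes, of 7 searched, that held the letters TGANTCA. This is a loose form of the AP-1 motif that allows any base at N, and as a pattern it reads the same on both strands. PLAT and THBD were not searched. The bases are given 5′ to 3′ on the gene's strand from RefSeq (GRCh38.p14), in lower case with the TGANTCA matches in capitals. AP-1, the FOS and JUN dimer, is a known activator of several genes of this system. F3, SERPINB2 and TFPI2 were higher in knockout cells and PLAUR was lower. Among the searched genes without a match, SERPINE2 was higher and PLAU and TFPI were lower. A link between matches and direction was not tested.
F3 (chr1:94541760-94542009, strand -): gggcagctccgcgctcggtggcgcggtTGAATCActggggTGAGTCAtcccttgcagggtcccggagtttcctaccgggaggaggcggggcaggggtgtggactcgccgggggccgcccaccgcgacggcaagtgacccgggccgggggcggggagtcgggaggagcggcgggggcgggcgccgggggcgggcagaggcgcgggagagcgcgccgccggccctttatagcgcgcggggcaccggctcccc
SERPINB2 (chr18:63887455-63887704, strand +): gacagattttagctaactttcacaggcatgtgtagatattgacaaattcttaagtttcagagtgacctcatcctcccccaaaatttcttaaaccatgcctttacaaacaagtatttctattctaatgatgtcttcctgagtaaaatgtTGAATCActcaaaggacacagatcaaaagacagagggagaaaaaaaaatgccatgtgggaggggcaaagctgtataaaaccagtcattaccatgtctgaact
TFPI2 (chr7:93890754-93891003, strand -): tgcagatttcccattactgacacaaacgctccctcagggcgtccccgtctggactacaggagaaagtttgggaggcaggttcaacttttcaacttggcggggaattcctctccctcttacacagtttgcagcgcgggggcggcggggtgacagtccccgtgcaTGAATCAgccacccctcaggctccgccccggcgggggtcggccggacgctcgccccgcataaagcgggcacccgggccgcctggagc
PLAUR (chr19:43670170-43670419, strand -): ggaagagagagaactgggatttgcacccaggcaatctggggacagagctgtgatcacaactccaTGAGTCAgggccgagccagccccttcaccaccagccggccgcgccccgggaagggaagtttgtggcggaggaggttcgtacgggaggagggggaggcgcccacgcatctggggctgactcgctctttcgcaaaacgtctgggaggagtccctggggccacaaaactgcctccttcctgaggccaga

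The F3 window held 2 matches, which began 223 and 210 bases before the start, and the others held 1 each, 102 bases before the start in SERPINB2, 87 in TFPI2 and 186 in PLAUR. The F3 match at 223 bases and those in SERPINB2 and TFPI2 read TGAATCA. The F3 match at 210 bases and that in PLAUR read TGAGTCA. Of 35114 RefSeq windows of the same length, 6.57% held at least 1 match with any base at N. The windows read for PLAU (2 starts), SERPINE2 (2 starts) and TFPI held none. The letters GGAATG of the TEAD motif (11.9% of all windows, either strand) and the full oestrogen response element GGTCANNNTGACC (0.0399% of all windows, either strand) were in none of the 9 windows read for these 7 genes. A match is a description of letters in a short window, and its absence says nothing about a factor.

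**Figure D1:**
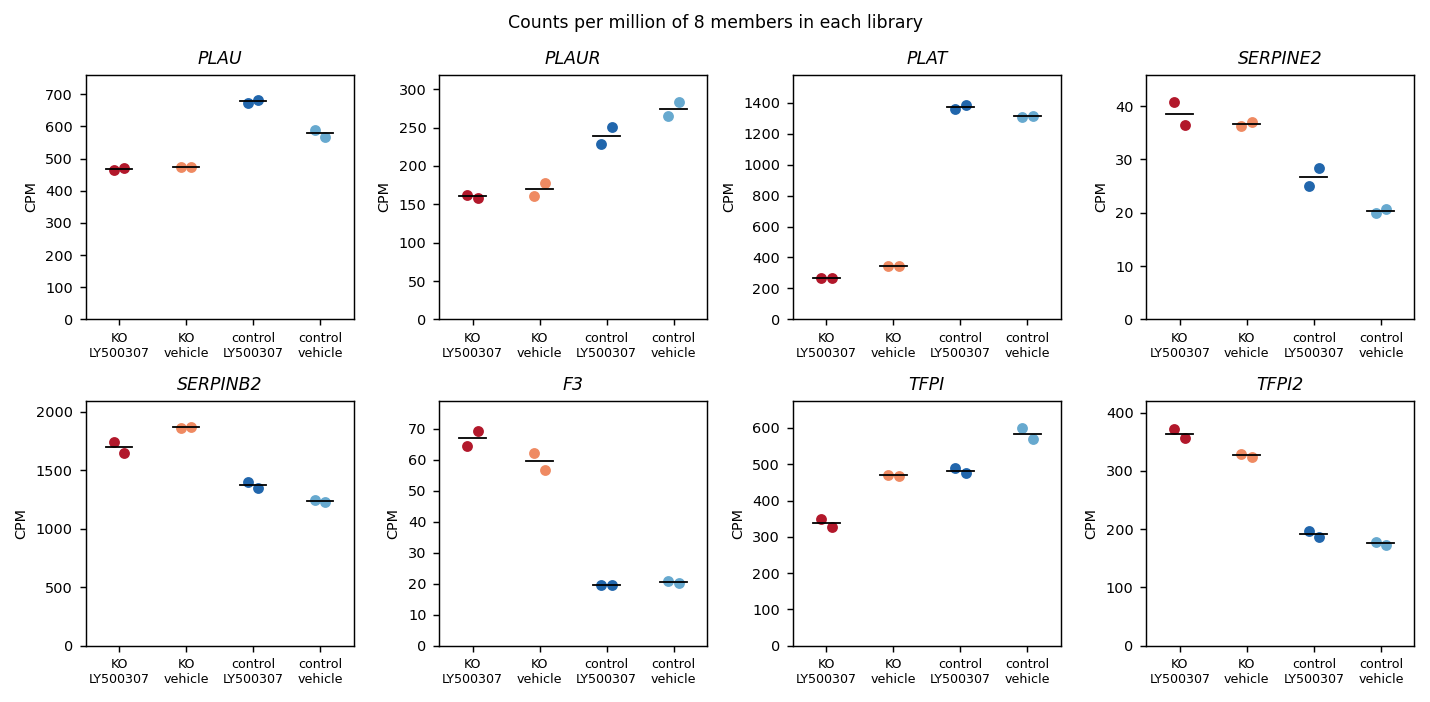
CPM (vertical axes, linear from 0) of 8 of the 9 genes in each of the 8 libraries, as 1 point per library with a line at the mean of the 2 libraries of a group; THBD, with 8 counts in all, is left out. F3 is at 56.7 to 69.3 CPM in the 4 knockout libraries and at 19.5 to 20.7 CPM in the 4 control libraries, and PLAT is at 265 to 343 CPM in knockout and 1307 to 1382 CPM in control libraries.

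Knockout against control cells with vehicle asked what differs between the populations without agonist. PLAT showed the greatest change of the 9: it had 343 and 343 CPM in knockout libraries, against 1307 and 1317 CPM in control libraries, 3.83-fold lower. F3 (hg19 chromosome 1, 94994729 to 95007315) moved the other way, with 62.2 and 56.7 CPM in knockout libraries and 20.7 and 20.3 CPM in control libraries, 2.89-fold higher. For both genes the groups were far apart relative to the gap between duplicates. The log2 fold changes were -1.94 for PLAT (SE 0.04, edgeR quasi-likelihood adjusted p = 3.69e-30) and 1.53 for F3 (SE 0.08, edgeR adjusted p = 9.84e-19). Among all genes tested, 5.75% changed by more than PLAT and 7.96% by more than F3.

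All 8 genes of the set that passed the filter on low counts were called, 4 higher and 4 lower. Of the 13498 genes tested, 64.0% were called in this comparison, 30.7% higher and 33.3% lower, so a call is common here. The median absolute log2 fold change was 0.77 over the 8 genes and 0.35 over all genes tested. None of the 8 had overlapping libraries, and 81.3% of all genes tested had none.

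On the side of plasminogen activation, all 3 genes were lower in knockout cells. The receptor gene PLAUR (chromosome 19, 44150247 to 44174699) had 161 and 178 CPM in knockout libraries and 265 and 284 CPM in control libraries, a log2 fold change of -0.69 (SE 0.05, edgeR adjusted p = 1.25e-13). PLAU (chromosome 10, 75668935 to 75677254) had 475 and 473 CPM in knockout libraries and 588 and 568 CPM in control libraries, a log2 fold change of -0.29 (SE 0.04, edgeR adjusted p = 1.34e-07). The fall in PLAU was thus small beside that of PLAT, and the makeup of the activator transcripts turned over: per length, PLAT was 35.6% and 35.7% of the sum of PLAT and PLAU in knockout libraries, against 62.9% and 63.9% in control libraries. That sum was 315 and 314 RPKM in knockout libraries and 678 and 673 RPKM in control libraries.

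Both serpin genes rose. SERPINB2 (chromosome 18, 61538926 to 61571122) had 1862 and 1873 CPM in knockout libraries and 1246 and 1234 CPM in control libraries, a log2 fold change of 0.59 (SE 0.04, edgeR adjusted p = 1.21e-15). SERPINE2 (chromosome 2, 224839762 to 224904035) had 36.3 and 37.1 CPM in knockout libraries and 19.99 and 20.7 CPM in control libraries, a log2 fold change of 0.85 (SE 0.09, edgeR adjusted p = 1.14e-10). For each serpin the duplicates lay close together and the groups apart. SERPINB2 transcript per unit of activator transcript (PLAU and PLAT summed, RPKM ratio) was 3.10 and 3.13 in knockout libraries, against 0.964 and 0.962 in control libraries.

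The Kunitz inhibitors went opposite ways. TFPI2 (chromosome 7, 93514708 to 93520065) had 330 and 325 CPM in knockout libraries and 179 and 173 CPM in control libraries, a log2 fold change of 0.89 (SE 0.05, edgeR adjusted p = 2.16e-18). TFPI (chromosome 2, 188328957 to 188430487) had 471 and 467 CPM in knockout libraries and 600 and 569 CPM in control libraries, a log2 fold change of -0.32 (SE 0.04, edgeR adjusted p = 8.12e-08). Per length, TFPI2 was above TFPI in knockout cells (ratios of 1.22 and 1.21) and below it in control cells (0.521 and 0.532). The ratio of F3 to TFPI was 0.222 and 0.204 in knockout libraries and 0.058 and 0.0599 in control libraries. These ratios are descriptions, chosen after the values were seen, and carry no test.

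THBD (chromosome 20, 23026270 to 23030309) could hardly be measured. It had 0 and 2 counts in LY500307-treated knockout libraries, 0 and 1 in vehicle-treated knockout libraries, 0 and 4 in LY500307-treated control libraries and 1 and 0 in vehicle-treated control libraries. The exact Poisson 95% intervals of the group sums, which cover counting error only, were 0.242 to 7.22, 0.0253 to 5.57, 1.09 to 10.2 and 0.0253 to 5.57 counts in that order of groups. They all overlap, which is not a test of a difference. In the edgeR fit without the filter on low counts, THBD passed in no comparison (adjusted p of 0.669 or more). So few counts leave differences between groups unresolved.

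Median changes in knockout cells also differed between chromosome arms, from -0.92 (18p) to 0.33 (2q) over 41 arms. The arms of the 8 genes had medians of -0.24 (8p, PLAT), -0.17 (19q, PLAUR), 0.04 (10q, PLAU), 0.17 (18q, SERPINB2), 0.28 (1p, F3), -0.16 (7q, TFPI2) and 0.33 (2q, SERPINE2 and TFPI). With arm medians removed all 8 calls and directions remained. F3 was then at 1.25, PLAT at -1.69 and TFPI2 at 1.05, while SERPINE2 moved to 0.52 and TFPI to -0.64.

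**Figure D2:**
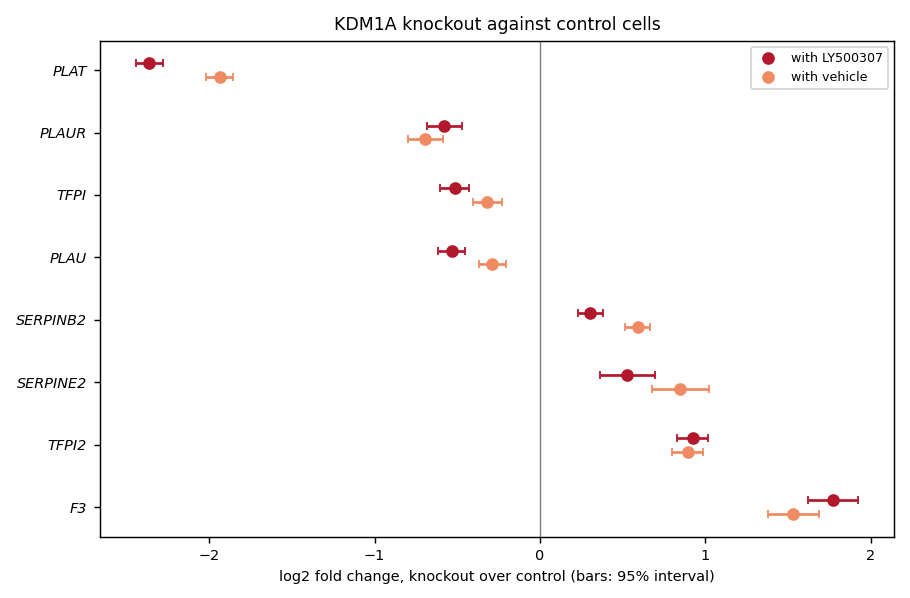
Log2 fold change of knockout over control cells (horizontal axis) for 8 genes, with LY500307 above and with vehicle below in each row; bars are 95% intervals of the edgeR fit and filled points have an adjusted p under 0.05. PLAT lies farthest to the left (-2.36 with LY500307, -1.94 with vehicle) and F3 farthest to the right (1.77 and 1.53), and each gene keeps its side in both treatments.

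The same contrast under LY500307 used other libraries. Again 4 genes were higher and 4 lower in knockout cells, the same genes on each side, where 66.2% of all genes tested were called, 32.6% higher and 33.6% lower. PLAT had 265 and 268 CPM in knockout libraries, against 1357 and 1382 CPM in control libraries, 5.14-fold lower (log2 fold change -2.36, SE 0.04, edgeR adjusted p = 1.87e-32). F3 had 64.4 and 69.3 CPM in knockout libraries and 19.5 and 19.7 CPM in control libraries, 3.42-fold higher (log2 fold change 1.77, SE 0.07, edgeR adjusted p = 6.23e-21). Neither gene had a knockout library near any control library.

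PLAU stood at 464 and 472 CPM in knockout libraries and at 674 and 681 CPM in control libraries, a log2 fold change of -0.53 (edgeR adjusted p = 7.2e-14). The receptor PLAUR stood at 162 and 159 CPM in knockout libraries and at 228 and 251 CPM in control libraries (-0.58, edgeR adjusted p = 1.17e-11). SERPINB2 had 1745 and 1647 CPM in knockout libraries and 1399 and 1347 CPM in control libraries (0.30, edgeR adjusted p = 1.16e-08). Its duplicates were farther apart here than with vehicle, yet the groups did not overlap. SERPINE2 had 40.7 and 36.4 CPM in knockout libraries and 24.99 and 28.4 CPM in control libraries (0.53, edgeR adjusted p = 5.94e-07). TFPI had 350 and 326 CPM in knockout libraries and 490 and 475 CPM in control libraries (-0.51, edgeR adjusted p = 1.63e-12). TFPI2 had 372 and 356 CPM in knockout libraries and 196 and 187 CPM in control libraries (0.92, edgeR adjusted p = 5.49e-19). With arm medians removed all 8 calls held again, with PLAUR at -0.37, SERPINE2 at 0.22, SERPINB2 at 0.19 and TFPI at -0.83.

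**Figure D3:**
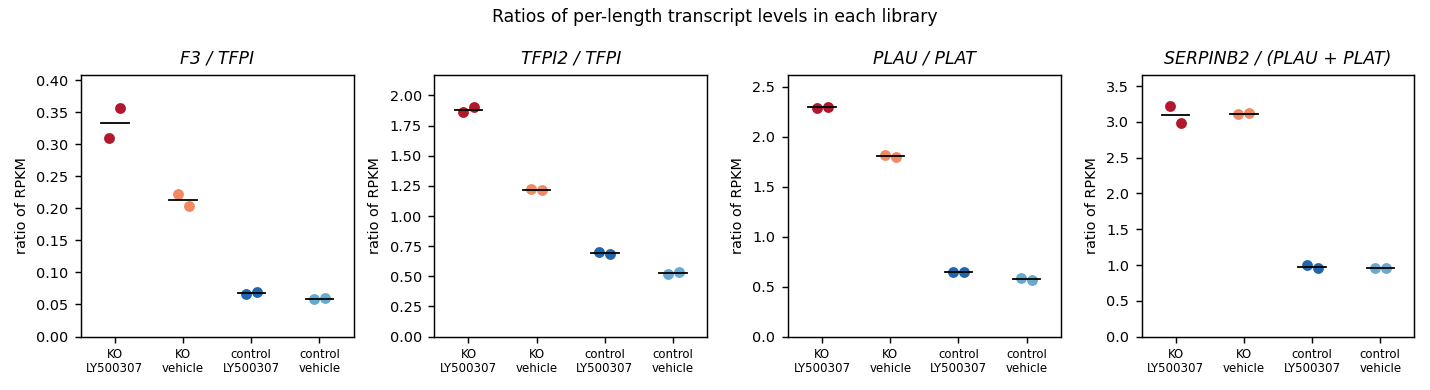
Ratios of per-length transcript levels (RPKM over RPKM, vertical axes from 0) in each library, with a line at the mean of the 2 libraries of a group. F3 over TFPI is 0.309 and 0.357 in LY500307-treated knockout and 0.222 and 0.204 in vehicle-treated knockout libraries, against 0.0667 and 0.0695 in LY500307-treated and 0.058 and 0.0599 in vehicle-treated control libraries.

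LY500307 against vehicle in knockout cells asked how the agonist acts where KDM1A is reduced. TFPI, PLAT and SERPINB2 fell and TFPI2 rose, 4 of the 8 genes, where 20.4% of all genes tested were called (9.16% higher, 11.3% lower). Over all genes the split depends on the scaling, with 1237 higher and 1522 lower here but 2288 higher and 953 lower with library totals. Libraries with LY500307 and with vehicle did not overlap for 6 of the 8 genes, and for 58.4% of all genes tested. TFPI had 350 and 326 CPM with LY500307, against 471 and 467 CPM with vehicle, 1.39-fold lower (log2 fold change -0.47, SE 0.04, edgeR adjusted p = 6.98e-10). PLAT had 265 and 268 CPM with LY500307 and 343 and 343 CPM with vehicle, 1.29-fold lower (-0.36, SE 0.04, edgeR adjusted p = 2.64e-08). In both cases each treated library was below each vehicle library.

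SERPINB2 had 1745 and 1647 CPM with LY500307 and 1862 and 1873 CPM with vehicle (-0.14, edgeR adjusted p = 0.00759), and TFPI2 had 372 and 356 CPM with LY500307 and 330 and 325 CPM with vehicle (0.15, edgeR adjusted p = 0.0119). These are small changes that rest on single libraries. The SERPINB2 call was lost without knockout vehicle replicate 2 (adjusted p = 0.057) or knockout LY500307 replicate 2 (adjusted p = 0.0944) and with library totals (-0.08, adjusted p = 0.114), and the TFPI2 call without knockout vehicle replicate 2 (adjusted p = 0.106) or knockout LY500307 replicate 1 (adjusted p = 0.166). F3, at 64.4 and 69.3 CPM with LY500307 and 62.2 and 56.7 CPM with vehicle, did not pass (0.17, 95% interval 0.03 to 0.31, edgeR adjusted p = 0.0672), although it passed with library totals (0.23, adjusted p = 0.0124) and with the replicate number as a block (0.17, adjusted p = 0.0319). PLAU (-0.02, 95% interval -0.10 to 0.06), PLAUR (-0.08, 95% interval -0.19 to 0.03) and SERPINE2 (0.07, 95% interval -0.09 to 0.23) did not pass, and libraries of the groups overlapped for PLAUR and SERPINE2.

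In control cells LY500307 raised PLAU, SERPINE2, SERPINB2 and TFPI2 and lowered TFPI and PLAUR, 6 of the 8 genes, where 26.3% of all genes tested were called (12.3% higher, 14.0% lower). Over all genes 1665 were higher and 1885 lower, against 2831 higher and 1011 lower with library totals. Libraries of the groups did not overlap for any of the 8 genes, nor for 63.1% of all genes tested. PLAU had 674 and 681 CPM with LY500307, against 588 and 568 CPM with vehicle, 1.17-fold higher (log2 fold change 0.23, SE 0.04, edgeR adjusted p = 5.77e-05). TFPI had 490 and 475 CPM with LY500307 and 600 and 569 CPM with vehicle, 1.21-fold lower (-0.28, SE 0.04, edgeR adjusted p = 1.24e-05). The rise in PLAU and the fall in TFPI were both larger than the gap between duplicates.

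SERPINE2 had 24.99 and 28.4 CPM with LY500307 and 19.99 and 20.7 CPM with vehicle (0.39, SE 0.09, edgeR adjusted p = 0.00108), a call lost without control LY500307 replicate 2 (adjusted p = 0.0526). SERPINB2 had 1399 and 1347 CPM with LY500307 and 1246 and 1234 CPM with vehicle (0.15, edgeR adjusted p = 0.00392), lost without control LY500307 replicate 1 (adjusted p = 0.0877). PLAUR had 228 and 251 CPM with LY500307 and 265 and 284 CPM with vehicle (-0.20, edgeR adjusted p = 0.005). That call was lost without control vehicle replicate 2 (adjusted p = 0.111) or control LY500307 replicate 1 (adjusted p = 0.16), and with library totals (-0.12, adjusted p = 0.0711). TFPI2 had 196 and 187 CPM with LY500307 and 179 and 173 CPM with vehicle (0.12, edgeR adjusted p = 0.0443). Leaving out any 1 of the control libraries, or either vehicle-treated knockout library, took TFPI2 over the threshold, with adjusted p from 0.0548 to 0.312. PLAT, at 1357 and 1382 CPM with LY500307 and 1307 and 1317 CPM with vehicle, did not pass (0.06, 95% interval -0.01 to 0.14, edgeR adjusted p = 0.234) but did with library totals (0.14, adjusted p = 0.00698). F3, at 19.5 and 19.7 CPM with LY500307 and 20.7 and 20.3 CPM with vehicle, did not pass (-0.07, 95% interval -0.24 to 0.10, edgeR adjusted p = 0.588).

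**Figure D4:**
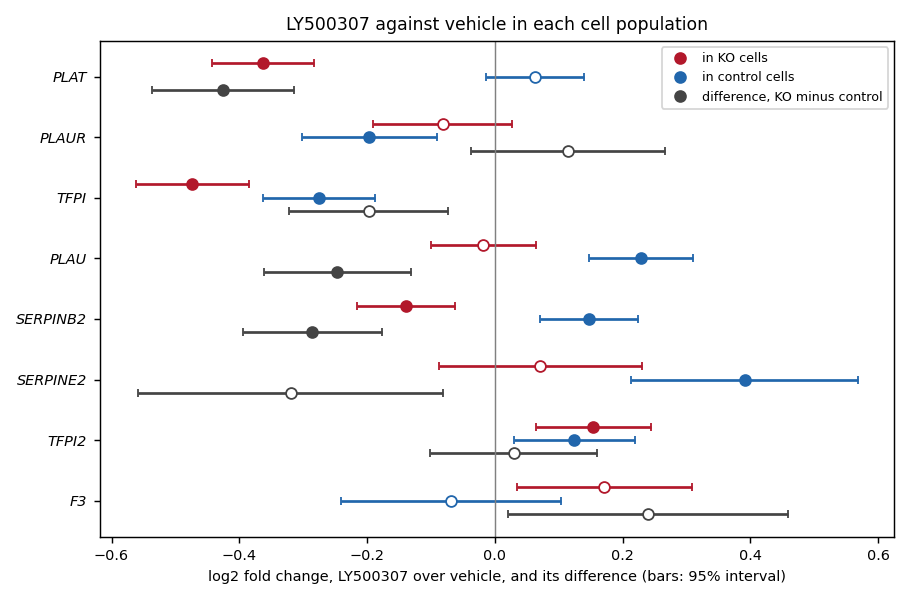
Log2 fold change of LY500307 over vehicle (horizontal axis) in knockout cells and in control cells, and the difference between them, for 8 genes; bars are 95% intervals of the edgeR fit and filled points have an adjusted p under 0.05. PLAT is at -0.36 in knockout and 0.06 in control cells, and SERPINB2 at -0.14 and 0.15, while TFPI lies left of 0 in both (-0.47 and -0.28).

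Whether the agonist acted differently in the populations was tested by the interaction, the log2 fold change in knockout cells minus that in control cells. PLAT, SERPINB2 and PLAU differed, 3 of the 8 genes and all lower, where 1.62% of all genes tested were called (0.526% higher, 1.09% lower). The difference was -0.43 for PLAT (SE 0.05, edgeR adjusted p = 7.97e-06), -0.29 for SERPINB2 (SE 0.05, edgeR adjusted p = 0.00195) and -0.25 for PLAU (SE 0.06, edgeR adjusted p = 0.0148). PLAT fell in knockout cells and did not pass in control cells, SERPINB2 fell in knockout and rose in control cells, and PLAU rose in control cells and did not pass in knockout cells.

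Differences for the other 5 genes did not pass. They were -0.20 for TFPI (95% interval -0.32 to -0.07, edgeR adjusted p = 0.092), -0.32 for SERPINE2 (95% interval -0.56 to -0.08, edgeR adjusted p = 0.172) and 0.24 for F3 (95% interval 0.02 to 0.46, edgeR adjusted p = 0.288). For PLAUR the difference was 0.12 (95% interval -0.04 to 0.27) and for TFPI2 it was 0.03 (95% interval -0.10 to 0.16). The PLAU call was lost in 4 of the 8 fits with 1 library left out, those without control vehicle replicate 2 (adjusted p = 0.0933), knockout vehicle replicate 2 (adjusted p = 0.0616), control LY500307 replicate 1 (adjusted p = 0.0576) and control LY500307 replicate 2 (adjusted p = 0.0871). TFPI passed without the filter on low counts (adjusted p = 0.0338), with a replicate block (adjusted p = 0.00919) and without knockout LY500307 replicate 1 (-0.26, adjusted p = 0.0248).

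Other genes of plasminogen activation were taken from a list of 26, of which 25 were found and 19 tested. Plasminogen itself, PLG, had no count in any library. With vehicle, 5 of the 19 were higher and 8 lower in knockout cells, with a median log2 fold change of -0.30, against -0.01 over all genes tested, of which 30.7% were called higher and 33.3% lower. The annexin gene ANXA2, whose product with S100A10 forms a cell surface receptor for plasminogen and tissue-type activator, fell to 364 ± 7.88 CPM in knockout cells, against 1350 ± 24.1 CPM in control cells (SD, n = 2 each; log2 fold change -1.89, edgeR adjusted p = 4.94e-29). S100A10 itself was higher, at 116 ± 6.26 CPM in knockout and 101 ± 2.60 CPM in control cells (SD, n = 2 each; 0.21, edgeR adjusted p = 0.00402), and it was named after its value was seen. Processed copies of ANXA2 and of ENO1 exist in the genome, so the split of their reads is uncertain. The integrin subunit ITGB1 changed by -0.45 and the lysosomal protease CTSB, which can activate pro-urokinase, by -0.37. With LY500307 ANXA2 fell in both populations (log2 fold change -0.43 in knockout and -0.34 in control cells), as did the enolase ENO1, a surface plasminogen receptor (-0.22 in each). Of the 19, LY500307 gave 1 higher and 6 lower in knockout cells, where 20.4% of all genes tested were called, and 2 higher and 3 lower in control cells, where 26.3% were. The interaction called 1 of the 19, where 1.62% of all genes tested were called. That gene was LRP1, which encodes the receptor that clears complexes of activators and serpins. Its difference was -0.55 (edgeR adjusted p = 0.00685), and it was named after its value was seen.

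From the clotting cascade and its control, 35 genes were found and 17 tested. F7, F9 and F10, which encode the factors that meet tissue factor, had no count in any library. With vehicle, 2 of the 17 were higher and 13 lower in knockout cells, with a median of -0.42, where 30.7% of all genes tested were called higher and 33.3% lower. TGM2, a transglutaminase able to cross-link fibrin, stood at 768 ± 28.7 CPM in knockout and 1423 ± 22.6 CPM in control cells (SD, n = 2 each; log2 fold change -0.89, edgeR adjusted p = 2.54e-20), and GAS6, a vitamin K-dependent ligand of TAM receptors, changed by -1.07. The protease-activated receptor genes split. F2RL1, whose product is cut by the tissue factor complex among others, changed by -0.92, and F2RL2, a thrombin-cut receptor, by 1.53. In control cells LY500307 raised both, F2RL2 by 0.91 and F2RL1 by 0.46, within counts of 4 higher and 2 lower of 17 (12.3% and 14.0% of all genes tested). In knockout cells 0 were higher and 4 lower (9.16% and 11.3% of all genes tested), among them the main thrombin receptor F2R, at 137 ± 2.84 CPM with LY500307 and 173 ± 11.9 CPM with vehicle (-0.34, edgeR adjusted p = 6.45e-06), and GAS6 (-0.44). The interaction was called for 2 of the 17, both lower, where 1.62% of all genes tested were called. They were F2R (-0.51, edgeR adjusted p = 3.65e-05) and F2RL2 (-0.72, edgeR adjusted p = 0.0173).

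Of 22 other serpins, 7 were tested. With vehicle 2 were higher and 2 lower in knockout cells, with a median of 0.10, where 64.0% of all genes tested were called. SERPINB7, a neighbour of SERPINB2 in the clade B cluster of chromosome 18, rose to 509 ± 6.84 CPM in knockout cells, against 98.5 ± 4.53 CPM in control cells, 5.17-fold higher, and the antitrypsin gene SERPINA1 was 12.1-fold higher (24.7 ± 0.322 against 2.05 ± 0.242 CPM; SD, n = 2 each). The collagen chaperone gene SERPINH1 changed by -0.58 and SERPINF1, which encodes pigment epithelium-derived factor, by -1.30. With LY500307 SERPINH1 rose by 0.16 in knockout cells and by 0.20 in control cells, SERPINA1 changed by -0.29 in knockout cells, and SERPINF1 rose by 0.40 in control cells. Of the 7, LY500307 gave 2 higher and 1 lower in knockout cells and 3 higher and 0 lower in control cells, beside 20.4% and 26.3% of all genes tested. EdgeR called no interaction among the 7, where 1.62% of all genes tested were called (1 of the 7, SERPINB7, had an unadjusted p under 0.05).

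Genes whose profile over the 8 libraries was most like that of each of the 8 were searched among 9445 protein-coding genes at a mean of at least 5 CPM. The measure was the root mean square difference of log2 CPM after centring each gene, which has no test. PLAT was closest to fibronectin FN1 (0.0322), with the carboxypeptidase CPA4 next (0.0495), against a median distance of 1.09 to all candidates. TFPI was closest to the G protein regulator RGS4 (0.027). In absolute distance F3 had no neighbour as close, with the teneurin ODZ1 at 0.0988 and the matrix protein SMOC1 at 0.109. The median distance to all candidates was 0.837 for F3, and over the 8 genes it ran from 0.274 (PLAU) to 1.09 (PLAT). Distances of different genes are therefore not on one scale. TFPI2 was nearest to SP100 (0.0362), SERPINB2 to LIMS1 (0.0428) and SERPINE2 to STAT2 (0.0573). PLAU was nearest to SPG11 and TP53BP1 (0.0366 each) and PLAUR to ZBTB45 (0.0379). Second in distance were SKA2 for TFPI (0.0368), PXK for TFPI2 (0.0382) and BTF3L4 for SERPINB2 (0.0435). For SERPINE2 it was CALCOCO1 (0.0608) and for PLAUR it was MRPS12 (0.0416). Among the 8 genes themselves the closest profiles were those of SERPINE2 and TFPI2 (0.164) and of SERPINE2 and SERPINB2 (0.177), and the most distant those of PLAT and F3 (1.91).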

How the data were processed

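The authors deposited whole-number read counts per gene symbol for each library, and per the submitters' processing notes bcl2fastq, TopHat2 2.0.8b, HTSeq and the hg19 build were used. Whether HTSeq counted by strand is not given in the sources here. Exons of PLAU, TFPI and TFPI2 overlap antisense genes (C10orf55, CALCRL-AS1 and GNGT1), and such reads cannot be told apart; SERPINB2 shares 547 exon bases with a coding gene model on its own strand (ENSG00000289724), so its split of reads is uncertain; C10orf55 stood at 3.22 to 4.61 CPM and GNGT1 had at most 1 count in a library. The series' design text describes sequencing in duplicate and names no separate cultures, so n counts libraries. The p-values therefore reflect spread between libraries that may be technical only. Duplicate libraries were kept apart, since their counts differed beyond sampling (chi-square over its degrees of freedom 3.05 to 4.30).

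Summary entries of the counter were removed; reads outside genes were 10.7% to 12.8% and ambiguous reads 0.811% to 0.861% of uniquely aligned reads. Of 23228 genes, filterByExpr kept 13498, among them 8 of the 9 studied. Counts were scaled by TMM and fitted in edgeR 4.0.16 (R 4.3.3) with 1 mean per group, 4 residual degrees of freedom a gene, and tested with glmQLFTest (two-sided, Benjamini-Hochberg over all genes tested, threshold 0.05). Tests also drew on 30.1 prior degrees of freedom shared across genes. SE and 95% intervals were computed from the log2 fold change and the F statistic of its test. Of sample columns, 0 were left unused. The procedure was tested on simulated data. Alternatives were RLE factors, library totals, no filter, DESeq2 1.42.0, only the groups compared, a replicate block, each library left out, and removal of chromosome arm medians (GENCODE 44 lifted to GRCh37, 21312 symbols matched).

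The studied genes and the lists were chosen with earlier results of these data known. Named genes are the 9, KDM1A, per list up to 4 (knockout) or 2 (LY500307) by smallest p among called genes reaching 5 CPM in a compared group, and the 2 nearest profiles (log2 CPM, prior count 2). For 1 gene picked by this rule, no result is reported here.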

Additional observations from a re-analysis of the deposited data

Results flagged for a closer look

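For 3 genes the log2 fold change under LY500307 differed between knockout and control cells by the test of the difference itself (edgeR quasi-likelihood interaction, adjusted over all genes tested). The difference, knockout minus control, was -0.43 for PLAT, -0.29 for SERPINB2 and -0.25 for PLAU. PLAT and SERPINB2 kept this call under each alternative that was run, while the PLAU call was lost in 4 of the 8 fits that left out 1 library. The direction was the same for all 3 genes under each of these alternatives.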

How the results depend on the processing

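Knockout against control gave 8 calls among the studied genes with either treatment, under each alternative run and without any 1 library (8 to 8). LY500307 against vehicle gave 4 calls in knockout cells (2 to 4 with 1 library left out, 2 without knockout vehicle replicate 2; 5 with the replicate block) and 6 in control cells (3 to 6, with 3 without control LY500307 replicate 1; 6 with the block). The interaction gave 3 (2 to 4; 4 with the block and 4 without the filter on low counts). The calls added with the block were F3 in knockout cells and TFPI in the interaction. Over all genes, the interaction count of 218 was 643 with the block, 350 without the filter and 95 to 262 with 1 library left out, and LY500307 counts of 2759 in knockout and 3550 in control cells were 1422 to 2736 and 2160 to 3810 with 1 library left out. Same-numbered libraries correlated at 0.0731 to 0.21 in their deviations, not above 0.1 in every pair, so the numbers were not taken as pairs.

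Signs turned only for values that had not passed. With library totals LY500307 changed PLAU by 0.0415 in knockout cells and F3 by 0.0042 in control cells. Without knockout LY500307 replicate 1 SERPINE2 changed by -0.0206 in knockout cells (-0.0206 to 0.1452 over the libraries left out), and the TFPI2 interaction was -0.0189 (-0.0189 to 0.0636), or -0.0040 without control LY500307 replicate 2. Of 568 values of single genes under alternatives, 537 kept their direction and their side of the threshold, 20 no longer passed, 6 newly passed and 5 turned. Where 1 library was left out, the lone library was assumed to vary like the other groups. The causes were not tested. With THBD at 8 counts over all libraries, depth limits any statement on it.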
